A study of Mus musculus with 12 samples.

Results

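The genes described here are 9 components of the hyaluronan-based matrix of the brain: the lecticans Acan, Bcan, Ncan and Vcan, the tenascins Tnc and Tnr, the link protein Hapln1, the hyaluronan synthase Has2 and the receptor Ptprz1. They were chosen by name, with earlier results of these data known, and all 9 of them are present among the 18903 genes of the count table. Counts of members called below therefore describe these genes and do not test the set. The table holds RNA-seq counts of primary mouse astrocytes prepared at postnatal day 1 (P1), P6 and P8, with 12 libraries in 6 groups of 2. At each age, cells of conditional knockout brains (cKO, hGFAP-Cre::Rack7 fl/fl) were set against cells of WT brains (hGFAP-Cre::Rack7 +/+), so both genotypes carried the Cre. Rack7, listed in the table as Zmynd8, encodes a chromatin reader, and its conditional allele loses exons 3 and 4 under a Cre driven by the human GFAP promoter, which acts in neural stem cells of the dorsal forebrain before birth. The Cre therefore also marks neurons and other glia of that lineage, and cells of other origin keep the gene. Brains freed of meninges were grown as mixed glia, shaken to remove loosely attached microglia and oligodendrocyte lineage cells, and cultured further until confluent. P1, P6 and P8 are thus the ages of the brains when taken, and the cells then grew for weeks in culture. Each age was a separate preparation, so age and culture preparation cannot be told apart. The number of animals behind each library was not given in the sources used here. The labels and the study call the 2 libraries of a group biological replicates, without saying whether they came from separate animals or cultures, so the p-values measure only the spread between those libraries.

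Hyaluronan is a long sugar polymer that is spun out through the cell membrane by the Has enzymes. Lecticans are chondroitin sulphate proteoglycans that bind hyaluronan at their amino-terminal end and tenascins at their carboxy-terminal end, and link proteins lock the lectican onto the polymer. The matrix built in this way is loose and rich in Ncan, Vcan and Tnc in the developing brain, and in maturity it condenses into perineuronal nets that hold Acan, Bcan, Tnr and Hapln1. Astrocytes are a main source of Ncan, Bcan, Tnc and Ptprz1, the last of which is a receptor phosphatase whose secreted form, phosphacan, is itself a proteoglycan of this matrix.

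The 12 libraries held 54413504 to 89183250 counts (median 67180944.5), and 17938 genes passed the filter on low counts, the 9 members among them. Levels are given as CPM, the counts of a gene scaled to a common library total. Zmynd8 itself was higher in the libraries labelled cKO at each age, from 136 to 214 CPM at P1, from 115 to 236 CPM at P6 and from 102 to 166 CPM at P8 (log2 fold changes of 0.65, 1.04 and 0.70, adjusted p = 3.16e-05, 4.97e-07 and 3.78e-06). A count over the whole gene does not read the loss of 2 exons, so it does not check the labels, and the groups are called libraries labelled cKO and libraries labelled WT below. The 9 tested astrocyte markers were all detected in every group, with sums of 1404 to 2253 CPM except in the P8 libraries labelled cKO, where the sum was 687 to 702 CPM. Markers of other cells were abundant as well. The sum of the 7 fibroblast markers ran from 408 to 423 CPM in P1 libraries labelled WT to 25682 to 25799 CPM in those of P8, and the 6 microglia markers summed to 1217 to 2533 CPM over all libraries.

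All 9 genes are protein-coding, and their places are given on GRCm38, the build that the labels name as mm10. Acan (ENSMUSG00000030607) lies at chr7:79053483-79115099, Bcan (ENSMUSG00000004892) at chr3:87987531-88000230, Ncan (ENSMUSG00000002341) at chr8:70093085-70120873 and Vcan (ENSMUSG00000021614) at chr13:89655312-89742509. Each lectican has a link protein gene beside it, with 0 protein-coding genes between. Vcan and Hapln1 (ENSMUSG00000021613, chr13:89539796-89611652) are 43.7 kb apart on opposite strands, Ncan and Hapln4 are 2.2 kb apart, Bcan and Hapln2 are 21.5 kb apart, and the ends of Acan and Hapln3 are 2 bases apart. Hapln2 was not analysed here. Tnc (ENSMUSG00000028364) lies at chr4:63959785-64047015, Tnr (ENSMUSG00000015829) at chr1:159523769-159931729, Has2 (ENSMUSG00000022367) at chr15:56665627-56694539 and Ptprz1 (ENSMUSG00000068748) at chr6:22875502-23052916. The counts are summed over each gene, so splice forms, phosphacan included, were not separated.

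The start regions of 4 members are shown because the results turn on them: Tnc, the member with a higher level in the libraries labelled cKO at every age, the neighbours Vcan and Hapln1, which were both lower in the libraries labelled cKO at P6 and P8, and Acan, which was high in 1 group alone. Each sequence is the RefSeq promoter window on GRCm38.p6, which runs from upstream of the RefSeq start to just past it, written on the strand of the gene. RefSeq starts need not be the gene starts given above, which come from GENCODE: the Acan window lies wholly upstream of the GENCODE gene and the Hapln1 window wholly inside it. RefSeq gives 2 windows for Tnc, of which the more upstream is shown. The windows are chr4:64046966-64047265 on the minus strand for Tnc, chr13:89742463-89742762 on the minus strand for Vcan, chr13:89540386-89540685 on the plus strand for Hapln1 and chr7:79052976-79053275 on the plus strand for Acan. Capitals mark matches, on either strand, to a TATA box (TATAAA), a GC box (GGGCGG), an AP-1 element (TGANTCA) or a TCF/LEF element (CTTTGAT).
Tnc: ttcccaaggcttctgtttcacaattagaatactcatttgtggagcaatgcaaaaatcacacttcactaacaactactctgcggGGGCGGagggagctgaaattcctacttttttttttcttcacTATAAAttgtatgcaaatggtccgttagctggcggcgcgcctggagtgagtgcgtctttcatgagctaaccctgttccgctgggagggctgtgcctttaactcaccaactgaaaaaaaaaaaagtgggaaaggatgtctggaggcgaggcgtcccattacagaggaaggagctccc
Vcan: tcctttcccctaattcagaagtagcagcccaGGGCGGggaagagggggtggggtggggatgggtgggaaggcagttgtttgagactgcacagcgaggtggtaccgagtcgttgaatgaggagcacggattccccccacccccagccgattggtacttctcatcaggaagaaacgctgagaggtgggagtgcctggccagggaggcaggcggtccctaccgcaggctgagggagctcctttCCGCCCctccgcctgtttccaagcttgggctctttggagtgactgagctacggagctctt
Hapln1: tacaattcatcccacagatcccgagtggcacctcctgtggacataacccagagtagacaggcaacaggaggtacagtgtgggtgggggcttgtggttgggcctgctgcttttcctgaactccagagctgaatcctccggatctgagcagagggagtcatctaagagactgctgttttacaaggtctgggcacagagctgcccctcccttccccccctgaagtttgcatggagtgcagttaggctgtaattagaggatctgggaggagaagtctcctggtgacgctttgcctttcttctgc
Acan: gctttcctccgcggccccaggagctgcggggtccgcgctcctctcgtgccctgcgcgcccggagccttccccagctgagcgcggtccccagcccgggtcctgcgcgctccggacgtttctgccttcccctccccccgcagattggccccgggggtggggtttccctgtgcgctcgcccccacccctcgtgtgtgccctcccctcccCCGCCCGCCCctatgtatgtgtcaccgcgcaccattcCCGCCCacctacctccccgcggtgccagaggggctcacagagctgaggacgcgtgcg

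The Tnc window holds a TATA box that begins 126 bases before the start and a GC box at 167 bases before it. The Vcan window holds GC boxes at 219 and 10 bases before the start. The Acan window holds 3 GC boxes, at 44, 40 and 7 bases before the start, of which the first and second overlap by 2 bases. None of the 4 kinds of match is in the Hapln1 window. Over 32851 RefSeq windows of the same length, a GC box is present in 35.7%, a TATA box in 13.6%, an AP-1 element in 7.81% and a TCF/LEF element in 3.73%, so these matches are common ones. The neighbours also differ in base make-up: Vcan has 12 CG dinucleotides in its window and Hapln1 has 3, against 31 for Acan, 10 for Tnc and a median of 7 over all windows. The windows of Has2 and Hapln4 were not used here.

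Levels of different genes were compared per kilobase of exon (CPM per kb). Tnc was the member with the highest level in all 6 groups, at a mean of 67.7 CPM per kb in the P8 libraries labelled WT and 510 CPM per kb in the P6 libraries labelled cKO. It made up 50.3% of the summed level of the 9 members in the former and 91.8% in the latter. Ptprz1 was next at P1 in both groups (14.0 and 16.4 CPM per kb), and Vcan was next at P8 in both groups (38.5 CPM per kb labelled WT and 15.5 CPM per kb labelled cKO). Acan was the lowest member in 5 of the 6 groups. In the P8 libraries labelled WT it reached 1.06 CPM per kb and passed Hapln1, at 0.369 CPM per kb.

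**Figure D1:**
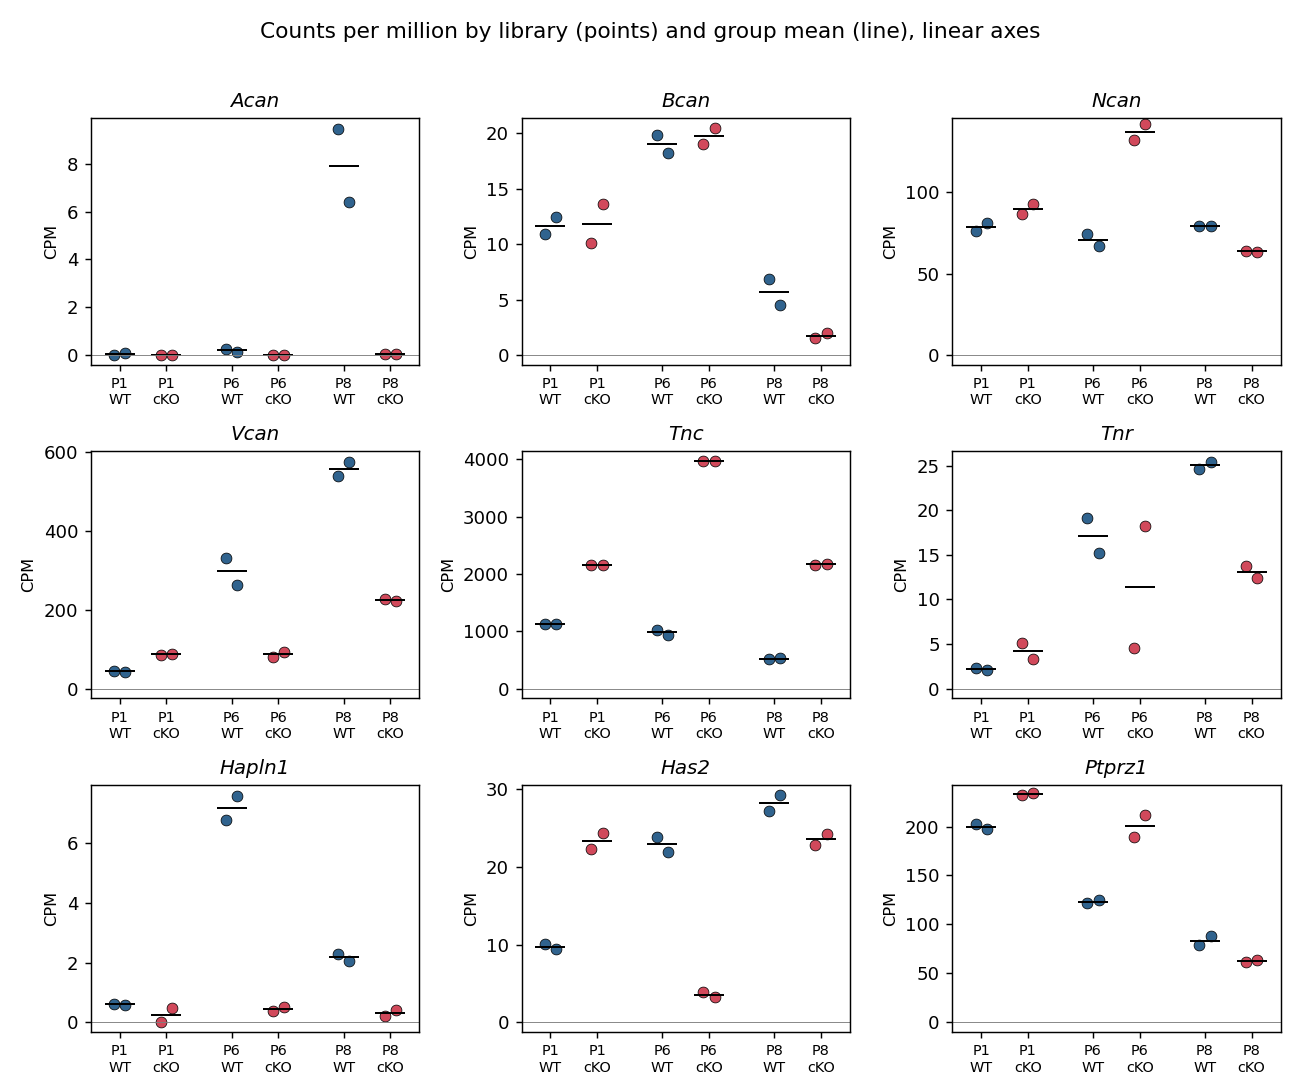
Normalised read counts (CPM) of the 9 members by library on linear axes (blue, libraries labelled WT; red, libraries labelled cKO; line, mean of the 2 libraries). Tnc was higher in the libraries labelled cKO at each age, Vcan rose with age in the libraries labelled WT, and the P6 libraries labelled cKO disagree for Tnr, at 4.51 and 18.2 CPM.

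To ask how the matrix genes differ between genotypes, libraries labelled cKO were compared with those labelled WT within each age. A member was called when its adjusted p was below 0.05 and its fold change at least 1.5. At P1, 3 of the 9 members were called higher by edgeR (Vcan, Tnc and Has2) and none lower. By the same edgeR test, 4.01% of all tested genes were called higher and 0.892% lower. The total was also 3 at an unadjusted p or by DESeq2, for which the shares of all genes are not given here. At P6, Ncan, Tnc and Ptprz1 were called higher and Acan, Vcan, Hapln1 and Has2 lower, against 7.16% of all genes higher and 6.38% lower. At P8, Tnc was called higher and Acan, Bcan, Vcan and Hapln1 lower, against 11.2% higher and 8.37% lower. Acan passed the filter on low counts only through the P8 libraries labelled WT, so its calls describe its values only. The median log2 fold change of the 9 members came to 0.22 (P1), -0.60 (P6) and -0.93 (P8), where that of all tested genes was 0, 0 and 0.01. Vcan and Has2 thus stood higher in the libraries labelled cKO at P1 and lower at P6, whereas Tnc stood higher at all 3 ages.

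**Figure D2:**
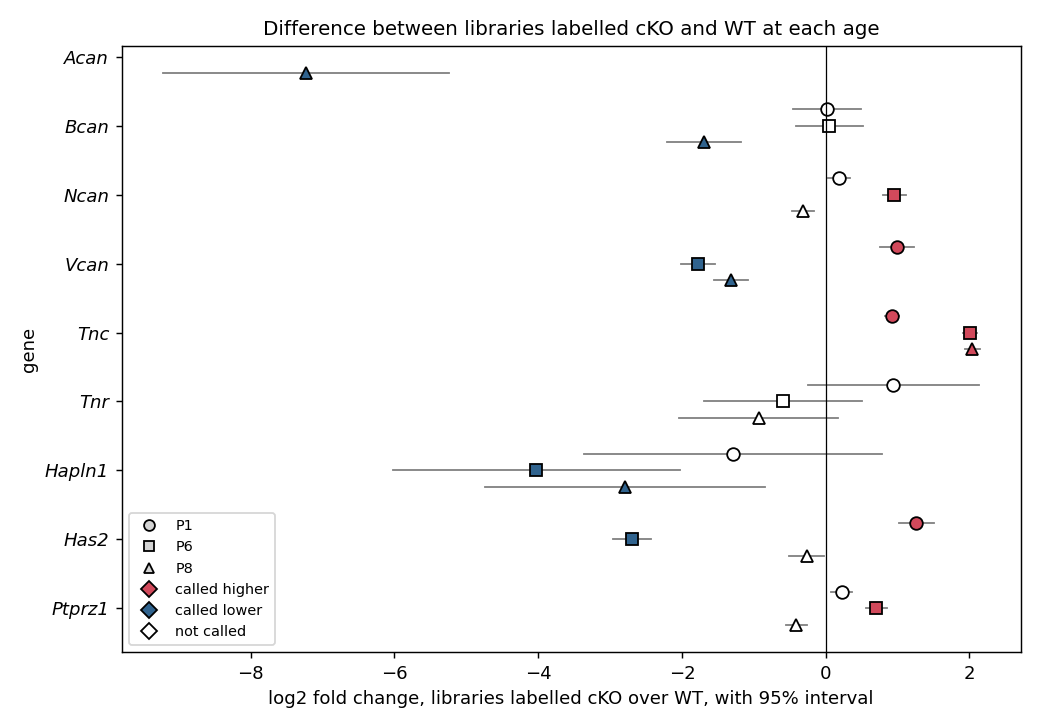
Log2 fold change of each member, libraries labelled cKO over WT, at P1 (circles), P6 (squares) and P8 (triangles), with 95% intervals from the edgeR fit (red, called higher; blue, called lower; white, not called). Tnc is to the right of 0 at all 3 ages and Vcan changes side between P1 and P6; Acan at P1 and P6 is left out because the libraries labelled cKO held no read.

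Has2 makes the polymer on which the matrix is built. At P1 its level was 10.1 and 9.38 CPM in libraries labelled WT and 22.4 and 24.4 CPM in those labelled cKO (log2 fold change 1.26, SE 0.11, adjusted p = 0.000109). At P6 the order was the opposite, with 23.9 and 22.0 CPM in the libraries labelled WT and 3.87 and 3.22 CPM in those labelled cKO, which is 6.47-fold lower (log2 fold change -2.69, SE 0.12, adjusted p = 3.91e-07). The P6 libraries labelled cKO were the lowest of the 6 groups for Has2, and no group overlapped with them. At P8 the libraries labelled WT had 27.3 and 29.3 CPM and those labelled cKO 22.9 and 24.3 CPM, and the difference was not called (log2 fold change -0.26, 95% interval -0.50 to -0.02, adjusted p = 0.0895). The genotype difference itself differed between P1 and P6 by -3.95 on the log2 scale (SE 0.16, adjusted p = 3.23e-07) and between P6 and P8 by 2.43 (SE 0.16, adjusted p = 7.33e-06). Has2 thus fell 6.59-fold from P1 to P6 and rose 6.64-fold from P6 to P8 in the libraries labelled cKO (adjusted p = 2.48e-07 and 1.64e-07). In the libraries labelled WT it rose 2.35-fold in the first step (adjusted p = 1.84e-05), and the second step was not called (log2 fold change 0.30, adjusted p = 0.0550). The non-coding Has2os shares 182 bases (4.30%) of the Has2 exons on the opposite strand, and whether the counting used strand was not given in the sources used here.

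Hapln1, the link protein that locks lecticans onto hyaluronan, was scarce. The P1 libraries labelled WT had 0.603 and 0.590 CPM and those labelled cKO 0 and 0.491 CPM, a difference that was not called (adjusted p = 0.490). At P6 the values were 6.77 and 7.58 CPM against 0.366 and 0.513 CPM (log2 fold change -4.02, SE 0.88, adjusted p = 0.00882). At P8 they were 2.30 and 2.05 CPM against 0.205 and 0.416 CPM (log2 fold change -2.79, SE 0.86, adjusted p = 0.0328). All 6 libraries labelled cKO lay below all 6 labelled WT. The P6 call was lost without P6 cKO replicate 1 (adjusted p = 0.0628), and the P8 call was lost when any of 6 libraries, those labelled WT at P6 and all 4 of P8, was left out (adjusted p of up to 0.171). The rise of Hapln1 from P1 to P6 in the libraries labelled WT was called (log2 fold change 3.58, SE 0.86, adjusted p = 0.00871), and it was lost without either P1 WT library (adjusted p of up to 0.0532).

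Vcan, the large lectican of loose embryonic and connective tissue matrix, had a highest group mean 12.7 times the lowest. At P1 it stood at 45.4 and 42.3 CPM in the libraries labelled WT and at 85.8 and 88.2 CPM in those labelled cKO (log2 fold change 0.99, SE 0.10, adjusted p = 0.000381). At P6 it stood at 331 and 263 CPM against 80.7 and 92.9 CPM, a 3.42-fold lower level in the libraries labelled cKO (log2 fold change -1.78, SE 0.11, adjusted p = 2.89e-06). At P8 it stood at 539 and 575 CPM against 226 and 222 CPM, which is 2.48-fold lower (log2 fold change -1.31, SE 0.10, adjusted p = 1.15e-05). The groups did not overlap at any age. The libraries labelled WT gained 6.78-fold from P1 to P6 and 1.87-fold from P6 to P8 (adjusted p = 8.59e-08 and 0.000144). Those labelled cKO did not differ detectably between P1 and P6 (log2 fold change -0.0029, 95% interval -0.24 to 0.23, adjusted p = 0.992) and then gained 2.58-fold (adjusted p = 6.64e-06). The genotype difference shifted by -2.76 on the log2 scale between P1 and P6 (SE 0.15, adjusted p = 2.29e-06), and its shift from P6 to P8 was not called (0.46, 95% interval 0.13 to 0.79, adjusted p = 0.0512). That shift was called by DESeq2 (adjusted p = 0.0274) and without P6 WT replicate 2 (0.62, adjusted p = 0.00595) or P6 cKO replicate 2 (0.57, adjusted p = 0.0364).

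Acan, the lectican that defines most perineuronal nets, was close to absent outside 1 group. It passed the filter on low counts only through that group, the P8 libraries labelled WT, so its calls describe its counts only. Its counts were 562 and 461 in the P8 libraries labelled WT (9.45 and 6.39 CPM) and 4 and 4 in those labelled cKO (0.0546 and 0.0476 CPM), a 150-fold lower level (log2 fold change -7.23, SE 0.84, adjusted p = 0.000494). At P6 the libraries labelled WT held 16 and 10 reads and those labelled cKO held 0 and 0, which with a floor of 3 counts over the group is at least 8.54-fold lower (adjusted p = 0.0226). This P6 call rests on 26 reads and was lost when P6 WT replicate 1 or either P6 cKO library was left out (adjusted p of up to 0.0769). At P1 there were 8 reads in 1 library labelled WT and none in the other 3. The step from P6 to P8 in the libraries labelled WT was called (log2 fold change 5.31, SE 0.74, adjusted p = 0.00134). With groups at 0, the change of the Acan genotype difference between ages could not be estimated.

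Bcan, a brain-specific lectican of mature astrocyte matrix, had the same level in both genotypes within the spread at P1 and P6. Its values at P1 were 10.9 and 12.4 CPM labelled WT against 10.1 and 13.6 CPM labelled cKO (log2 fold change 0.02, 95% interval -0.45 to 0.50). At P6 they were 19.9 and 18.2 CPM against 19.0 and 20.4 CPM (log2 fold change 0.05, 95% interval -0.42 to 0.52). The sign of both differences turned when single libraries were left out. At P8 the libraries labelled WT had 6.83 and 4.54 CPM and those labelled cKO 1.53 and 1.97 CPM, a 3.23-fold lower level (log2 fold change -1.69, SE 0.23, adjusted p = 0.000344). From P6 to P8, Bcan fell 3.35-fold in the libraries labelled WT and 11.2-fold in those labelled cKO (adjusted p = 0.000243 and 2.88e-06), and the genotype difference shifted by -1.75 on the log2 scale (SE 0.31, adjusted p = 0.00332). Most astrocyte markers were lower along with Bcan at P8. Of the 9 tested, 5 were called lower (Gfap, Aqp4, S100b, Gja1 and Aldoc) and none higher, and their sum was 1566 to 1949 CPM in the libraries labelled WT against 687 to 702 CPM in those labelled cKO. Aldh1l1 went the other way at less than 1.5-fold (51.8 against 72.7 CPM, log2 fold change 0.49, adjusted p = 0.000446). Their part in the result was not tested. In bulk RNA, fewer cells of a type and less RNA per cell cannot be told apart.

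Ncan, a lectican made by young astrocytes and neurons, was the steadiest of the members, with a highest group mean 2.15 times the lowest. At P1 it stood at 76.3 and 81.0 CPM labelled WT and 86.6 and 92.6 CPM labelled cKO, which was not called (log2 fold change 0.19, adjusted p = 0.143). At P6 it stood at 74.5 and 66.9 CPM against 132 and 142 CPM (log2 fold change 0.96, SE 0.07, adjusted p = 1.05e-05). At P8 the libraries labelled cKO were the lower ones, with 79.5 and 79.5 CPM against 64.2 and 63.6 CPM, a difference that passed the test but not the 1.5-fold limit (log2 fold change -0.31, SE 0.07, adjusted p = 0.00607). The shift of the genotype difference from P6 to P8 was -1.27 on the log2 scale (SE 0.10, adjusted p = 2.04e-05). In the libraries labelled cKO the rise from P1 to P6 was close to the limit, at 1.53-fold, and the fall to P8 was 2.15-fold (adjusted p = 0.000102 and 1.79e-06).

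The make-up of the lectican transcripts therefore differed between the groups. Per kilobase of exon, Ncan held 64.5 to 65.3% of the summed lectican level at P1 in the libraries labelled WT, 27.1 to 29.0% at P6 and 20.9 to 21.6% at P8, while Vcan went from 17.0 to 19.1% through 56.9 to 60.0% to 72.7 to 75.3%. In the libraries labelled cKO Ncan held 57.7 to 58.8% at P1, 63.3 to 64.2% at P6 and 35.8% in both libraries at P8. The P6 libraries labelled cKO had a Vcan share of 19.5 to 20.6% where the P1 libraries labelled WT had 17.0 to 19.1% and the P6 ones 56.9 to 60.0%. Summed lectican levels were 16.4 to 17.3 CPM per kb at P1 in the libraries labelled WT and 51.2 to 52.8 at P8, against 24.7 to 24.9 CPM per kb in the P8 libraries labelled cKO. Shares are given as a description, since a rise of one lectican lowers the share of the others.

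**Figure D3:**
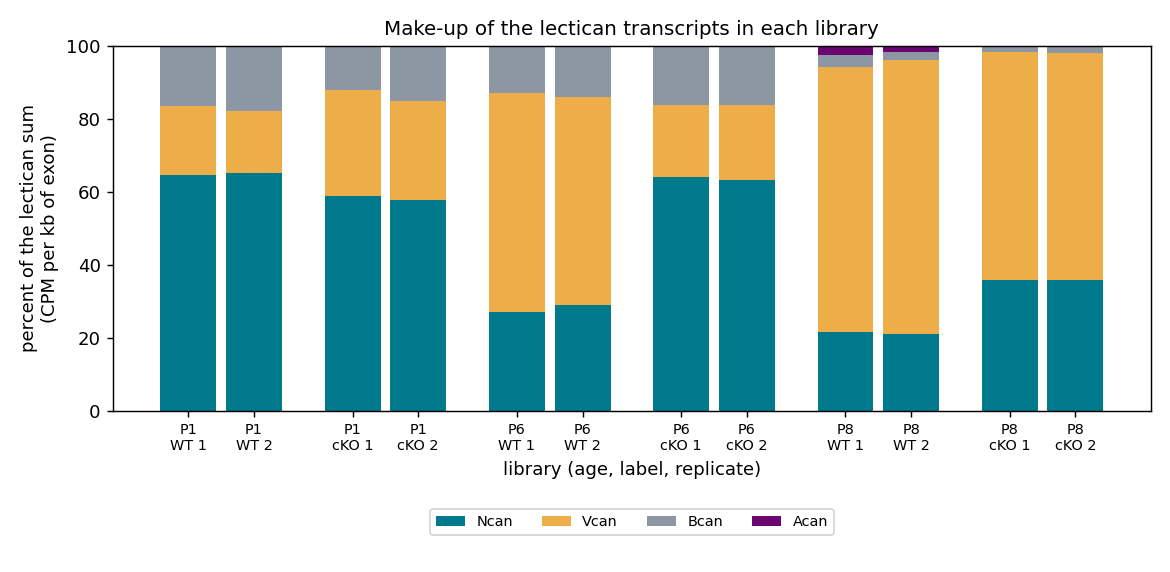
Share of each lectican in the summed lectican level (CPM per kb of exon) in each of the 12 libraries. Ncan held 63.3 to 64.2% in the P6 libraries labelled cKO, against 27.1 to 29.0% in the P6 libraries labelled WT, where Vcan held 56.9 to 60.0%.

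Tnc, the large tenascin of growing and injured tissue that binds lecticans and integrins, was higher in the libraries labelled cKO at every age. At P1 the libraries labelled WT had 1131 and 1132 CPM and those labelled cKO 2152 and 2149 CPM (log2 fold change 0.93, SE 0.04, adjusted p = 1.89e-06). At P6 they had 1031 and 936 CPM against 3965 and 3966 CPM, a 4.03-fold higher level (log2 fold change 2.01, SE 0.04, adjusted p = 8.38e-09). At P8 they had 514 and 538 CPM against 2153 and 2180 CPM, which is 4.12-fold higher (log2 fold change 2.04, SE 0.04, adjusted p = 4.02e-09). All 6 libraries labelled cKO lay above all 6 labelled WT. From P1 to P6 the genotype difference grew by 1.08 (SE 0.06, adjusted p = 2.82e-06) and did not shift detectably from P6 to P8 (0.03, 95% interval -0.11 to 0.17, adjusted p = 0.783). From P1 to P6, Tnc rose 1.84-fold in the libraries labelled cKO (adjusted p = 5.27e-07), and in those labelled WT the change stayed under 1.5-fold (log2 fold change -0.20, adjusted p = 0.00449). From P6 to P8 it fell in both, 1.87-fold labelled WT and 1.83-fold labelled cKO (adjusted p = 4.71e-07 and 3.84e-07). The neural stem cell markers moved in the same direction at P6 and P8. Of the 5 tested, Nes, Sox2 and Pax6 were called higher at both ages, with sums of 938 to 1000 CPM labelled WT against 2180 to 2211 CPM labelled cKO at P6 and of 180 to 190 against 585 to 591 CPM at P8, and Prom1 was called lower at P8. At P1 none of the 5 was called (1070 to 1090 against 1197 to 1223 CPM). Their part in the result was not tested.

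Tnr, the tenascin of oligodendrocytes and mature nets, could not be read firmly. It had 2.28 and 2.13 CPM labelled WT and 5.08 and 3.35 CPM labelled cKO at P1 (log2 fold change 0.94, adjusted p = 0.356), and 24.6 and 25.4 CPM against 13.7 and 12.5 CPM at P8 (log2 fold change -0.93, adjusted p = 0.180). At P6 the libraries labelled WT had 19.1 and 15.2 CPM, and the libraries labelled cKO stood apart from each other, at 4.51 and 18.2 CPM (log2 fold change -0.60, adjusted p = 0.438). Because all groups share 1 estimate of the spread, this disagreement weighs on every Tnr comparison. Without P6 cKO replicate 2 the P6 difference was called at -1.93 (adjusted p = 0.00124), and without replicate 1 its sign turned (0.09). In the fit on the P8 libraries alone, the P8 difference was called (adjusted p = 0.00159). In the fit on the P1 libraries alone, the P1 difference was not called. Without either P6 cKO library the log2 fold changes at P1 and P8 stayed at 0.94 and -0.93, and both changed to called. The rise from P1 to P6 in the libraries labelled WT was called (log2 fold change 2.96, SE 0.54, adjusted p = 0.00193). The oligodendrocyte precursor markers summed to 164 to 166 CPM labelled WT and 116 to 123 CPM labelled cKO at P6, and to 127 to 129 against 70.6 to 71.3 CPM at P8. The P8 sums hide unlike members: Cspg4 was 85.8 against 33.9 CPM, Olig1 16.8 against 16.7 CPM and Olig2 4.60 against 5.96 CPM. Olig1 was called lower at P6, Cspg4 and Sox10 were called lower at P8, and none of these markers was called higher at either age. Their part in these values was not tested.

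Ptprz1, the receptor phosphatase that binds Tnc, Ncan and the growth factors Ptn and Mdk, was highest at P1 and lowest at P8 in both genotypes. At P1 it stood at 203 and 197 CPM labelled WT and 232 and 234 CPM labelled cKO, not called (log2 fold change 0.22, adjusted p = 0.0711). At P6 it stood at 121 and 125 CPM against 189 and 212 CPM, 1.63-fold higher in the libraries labelled cKO (log2 fold change 0.71, SE 0.07, adjusted p = 5.58e-05). At P8 the order was the other way, at 78.8 and 88.0 CPM against 62.0 and 63.7 CPM, a difference that passed the test at less than 1.5-fold (log2 fold change -0.41, SE 0.07, adjusted p = 0.00113). From P1 to P6 it fell 1.63-fold in the libraries labelled WT (adjusted p = 2.83e-05) and stayed under the limit in those labelled cKO (log2 fold change -0.22, adjusted p = 0.0270). From P6 to P8 it fell 3.19-fold in the libraries labelled cKO (adjusted p = 1.17e-07) and stayed just under the limit in those labelled WT (log2 fold change -0.56, adjusted p = 0.000174). The genotype difference shifted by 0.48 between P1 and P6 (SE 0.09, adjusted p = 0.00715) and by -1.11 between P6 and P8 (SE 0.09, adjusted p = 3.73e-05).

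The steps between ages were tested within each genotype label. From P1 to P6, the libraries labelled WT had 5 members called higher (Bcan, Vcan, Tnr, Hapln1 and Has2) and Ptprz1 lower, against 12.2% of all tested genes higher and 10.9% lower. Over the same step, those labelled cKO had 3 called higher (Bcan, Ncan and Tnc) and Has2 lower, against 11% higher and 10.4% lower. From P6 to P8, Acan and Vcan were called higher and Bcan and Tnc lower in the libraries labelled WT, against 8.66% higher and 10.3% lower. In those labelled cKO, Vcan and Has2 were called higher and Bcan, Ncan, Tnc and Ptprz1 lower, against 11.9% higher and 12.2% lower. The Acan call describes its values only, because Acan passed the filter only through the P8 libraries labelled WT. By the test of the difference itself, the genotype difference changed between P1 and P6 for 5 of the 9 members where it did for 15.3% of all tested genes, between P6 and P8 for 4 where it did for 21.5%, and between P1 and P8 for 6 where it did for 25.7%. The rise of Bcan from P1 to P6 was lost in the libraries labelled WT without any 1 of their 4 libraries (adjusted p of up to 0.125) and in those labelled cKO without P1 cKO replicate 1 or either P6 cKO library (adjusted p of up to 0.139), and the rise of Ncan fell under 1.5-fold without P1 cKO replicate 1 or P6 cKO replicate 2.

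In the order of the 6 group means, neighbouring groups were often not separated by their libraries. For Vcan the order ran from P8 WT through P6 WT and P8 cKO to P1 cKO, P6 cKO and P1 WT, and only P1 cKO and P6 cKO overlapped. For Tnc no neighbouring groups overlapped, and the 3 groups labelled cKO came first. For Has2 the groups P8 cKO, P1 cKO and P6 WT overlapped in the middle of the order, for Ptprz1 P6 cKO and P1 WT, for Ncan P8 WT and P1 WT, and for Bcan the genotypes at P6 and at P1. Hapln1 overlapped among its 3 groups labelled cKO, and Acan among the 4 groups at or near 0.

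Fibroblast markers moved with several of these members. Of the 7 markers, 6 were called higher in the libraries labelled cKO at P1 (sums of 408 to 423 CPM labelled WT and 2459 to 2491 CPM labelled cKO), 6 were called lower at P6 (6672 to 6719 against 2548 to 2723 CPM, with Lum at 0 in the libraries labelled cKO) and 6 were called lower at P8 (25682 to 25799 against 8211 to 8460 CPM). The most abundant of them, Col1a1 and Col1a2, averaged 9721 and 9237 CPM in the P8 libraries labelled WT. The direction was that of Vcan at all 3 ages and that of Has2 at P1 and P6, and Acan and Hapln1 were lower at P6 and P8 as these markers were. Their part in those results was not tested. Tnc, in contrast, was higher in the libraries labelled cKO at P6 and P8, where the fibroblast markers were lower. The 4 tested mural markers had larger sums under the cKO label at each age, in the direction of Tnc. Sums were 1699 to 1706 CPM labelled WT against 2543 to 2548 CPM labelled cKO at P1. They were 2082 to 2146 against 2465 to 2826 CPM at P6 and 1675 to 1686 against 2096 to 2116 CPM at P8. Acta2 made up most of these sums and was not called at any age. Myh11 was called higher at P6 and P8, Rgs5 lower at P6, and Cspg4 higher at P1 and lower at P8. Their part in the Tnc result was not tested. The 3 tested endothelial markers summed to 108 to 113 CPM labelled WT and 53.0 to 55.6 CPM labelled cKO at P6, and to 145 to 158 against 33.9 to 35.4 CPM at P8. These sums hide opposite directions: Cdh5 and Tek were called lower at both ages (Cdh5, 56.4 against 0.859 CPM at P6 and 133 against 9.84 CPM at P8), while Flt1 was 36.9 against 53.2 CPM at P6, not called, and was called higher at P8 (5.14 against 19.4 CPM). The microglia sum at P8 was 1349 to 1396 CPM labelled WT and 2510 to 2533 CPM labelled cKO.

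**Figure D4:**
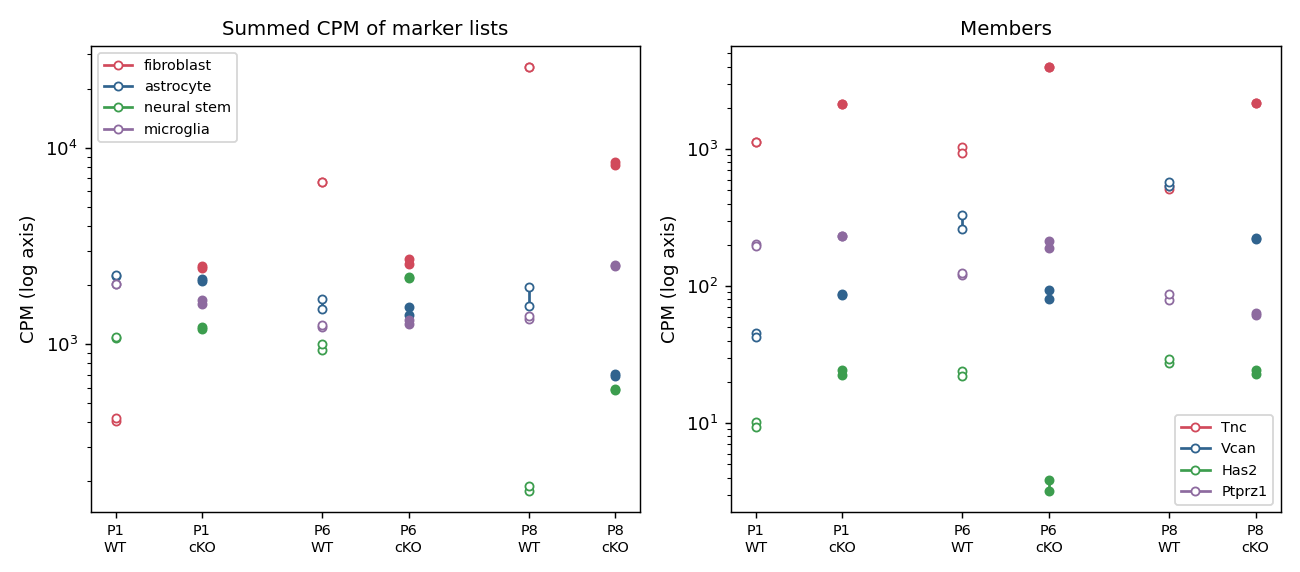
Summed CPM of 4 marker lists (left) and CPM of 4 members (right) in each group on log axes, with the lower and the higher library joined by a line (open, libraries labelled WT; filled, labelled cKO). The fibroblast sum and Vcan share their direction between the genotypes at P1, P6 and P8, and the neural stem sum and Tnc share theirs at P6 and P8.

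For each member, the genes with the most similar profile were found over the 12 libraries among 15145 genes with a mean of at least 1 CPM, by the root-mean-square difference of centred log2 CPM. The genes nearest to Vcan were Lama4 (0.23) and Ltbp4 (0.24), a laminin chain and a latent TGF-beta binding protein, against a median of 1.29 over all candidates. Nearest to Tnc were Irx2 (0.19) and Adra1d (0.20), to Ncan Smad3 (0.14) and Rtl6 (0.14), to Ptprz1 Slc2a3 (0.14) and Cadm4 (0.15), and to Bcan Slc38a3 (0.30) and Fbln7 (0.30). Has2 was nearest to Lrrc32 (0.47) and Ptprb (0.47), and Tnr to Ahnak2 (0.48) and Frk (0.49). The distances were larger for Acan (Zim1 and Slc4a10, both 0.97) and Hapln1 (Egflam, 1.01, and Cntn3, 1.19), for which the medians over all candidates were also larger, at 2.84 and 2.12. Acan reached a mean of 1 CPM only through the P8 libraries labelled WT (7.92 CPM, with other group means of 0 to 0.199 CPM). Hapln1 reached it through the P6 and P8 libraries labelled WT (7.17 and 2.18 CPM). The nearest genes of both thus depend on those high groups. Among the members themselves, Ncan and Ptprz1 (0.56) and Vcan and Tnr (0.56) were the closest pairs.

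The remaining genes of the pathway were read from lists of genes that make, bind, cut or receive the matrix. Among 15 tested genes that handle hyaluronan, 2 were called higher and none lower in the libraries labelled cKO at P1 (4.01% and 0.892% of all tested genes), 1 higher and 4 lower at P6 (7.16% and 6.38%), and 2 higher and 4 lower at P8 (11.2% and 8.37%). The other synthase tested, Has1, was lower at P6 (2.92 against 0.722 CPM, log2 fold change -2.01, SE 0.40, adjusted p = 0.00493), as Has2 was. Cemip, which takes part in hyaluronan breakdown, was lower at P6 (892 against 339 CPM, log2 fold change -1.40) and at P8 (1310 against 739 CPM, log2 fold change -0.83), and was 145 against 202 CPM at P1, under the limit. Itih3, a heavy chain that is carried on hyaluronan, was higher at P1 (28.0 against 107 CPM) and P6 (18.5 against 58.4 CPM), Itih2 was higher at P1 (0.0737 against 6.11 CPM), and Itih5 was lower at P6 (60.9 against 16.4 CPM) and P8 (54.7 against 18.4 CPM). Stab1, a scavenger receptor that macrophages carry, was higher at P8 (395 against 1780 CPM, log2 fold change 2.17, adjusted p = 2.55e-09). At that age the microglia markers P2ry12, Aif1 and C1qa were called higher too and Tmem119 lower. Their part in the result was not tested.

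The other link proteins were low. Hapln3 was called higher at P6 (0.426 against 2.27 CPM, log2 fold change 2.41, SE 0.60, adjusted p = 0.0165) and Hapln4 at P8 (0.579 against 1.56 CPM, log2 fold change 1.43, SE 0.42, adjusted p = 0.0277), both opposite in direction to Hapln1. The Hapln3 call was lost without P6 WT replicate 1 or P6 cKO replicate 2 (adjusted p = 0.0987 and 0.0558) and the Hapln4 call without any 1 of the 4 P8 libraries (adjusted p of up to 0.155). A further tenascin, Tnn, was higher at P6 (2.79 against 7.53 CPM, log2 fold change 1.43, adjusted p = 0.00197), in the direction of Tnc. Of 5 proteoglycans outside the lectican family, 2 were called higher at P1 (4.01% of all tested genes), 2 lower at P6 (6.38%) and 3 lower at P8 (8.37%). Spock3, a testican, was called in the same directions as Vcan, with 0.379 against 4.11 CPM at P1, 25.8 against 0.626 CPM at P6 and 104 against 2.07 CPM at P8 (log2 fold changes 3.50, -5.37 and -5.66, adjusted p = 0.00184, 3.22e-05 and 9.56e-06). Cspg4, the NG2 proteoglycan of precursors and mural cells, was 22.8 against 45.2 CPM at P1 (called higher), 63.9 against 48.6 CPM at P6 (under the limit) and 85.8 against 33.9 CPM at P8 (called lower).

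Of 21 enzymes that build and sulphate the chondroitin sulphate chains, none was called at P1 by edgeR or DESeq2 (1 higher and 1 lower at an unadjusted p), 2 higher and 4 lower were at P6 (7.16% and 6.38% of all tested genes), and 3 higher and 5 lower at P8 (11.2% and 8.37%). Csgalnact1, which starts the chain, was lower at P6 (34.3 against 16.7 CPM) and P8 (85.5 against 14.5 CPM, log2 fold change -2.56, SE 0.30, adjusted p = 0.000138), although the P6 call was lost without any 1 of the 4 P6 libraries (adjusted p of up to 0.117). Chst15, which adds a further sulphate, was lower at P6 (30.6 against 6.79 CPM, log2 fold change -2.17, adjusted p = 3.91e-07) and P8 (20.8 against 9.32 CPM), and Chst11 was lower at P8 (118 against 59.4 CPM). Chst3 was higher at P6 (7.07 against 14.3 CPM) and Chst7 at P8 (3.11 against 6.98 CPM). Fam20b, a kinase that acts on the linker of the chain and is among the most abundant of the list, was not called at any age (at P8, 115 against 114 CPM, log2 fold change -0.01). Of 7 proteases that cut lecticans, Adamts8 was higher at all 3 ages (3.83 against 10.1, 6.99 against 12.4 and 2.23 against 5.63 CPM), while Adamts15 and Adamts20 were lower at P6 and P8 (at P8, 30.2 against 4.92 CPM and 5.61 against 0.467 CPM). The more abundant Adamts1 (141 against 118 CPM at P8) and Adamts5 (167 against 121 CPM at P8) were not called at any age. Without single libraries the calls of Adamts8 and Adamts20 at P6 and of Chst7 at P8 were lost (adjusted p of up to 0.0643, 0.145 and 0.0923).

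Among 22 receptors and ligands of the matrix, 5 were called higher and 1 lower at P1 (4.01% and 0.892% of all tested genes), 1 higher and 8 lower at P6 (7.16% and 6.38%), and 4 higher and 7 lower at P8 (11.2% and 8.37%). Egfr, a receptor for EGF-like repeats such as those of Tnc, was 50.9 against 64.5 CPM at P1 (under the limit), 314 against 87.4 CPM at P6 and 917 against 109 CPM at P8 (log2 fold changes -1.85 and -3.07 at the later ages, adjusted p = 4.72e-08 and 2.55e-09). Fbln1, a fibulin that binds lecticans, was 4.70 against 13.7 CPM at P1, 67.1 against 8.70 CPM at P6 and 497 against 65.5 CPM at P8, called at each age and in the direction of Vcan. Fbln2 was called higher at P1 (58.4 against 137 CPM), lower at P6 (344 against 89.8 CPM) and higher at P8 (397 against 818 CPM). Of the Tnc receptors, Itgb1 was under the limit at each age (at P6, 3139 against 2536 CPM), and Itgb3 was called higher at P1 (1.04 against 4.20 CPM) and P8 (11.99 against 22.6 CPM, a call that was lost without P8 WT replicate 2 or P8 cKO replicate 2, adjusted p of up to 0.0685). L1cam, a cell adhesion molecule, was called lower at all 3 ages (at P8, 8.78 against 3.64 CPM), with its P1 and P6 calls lost in the fits on the libraries of that age alone (adjusted p = 0.123 and 0.0542). The P6 call was also lost without any 1 P6 library (log2 fold changes -0.69 to -0.64). The P1 call was lost without either P1 WT library or P1 cKO replicate 1 (log2 fold changes -0.71, -0.85 and -0.56). Ptn and Mdk, the growth factors bound by Ptprz1, were called higher at P1 (81.1 against 136 and 7.18 against 17.4 CPM) and lower at P8 (314 against 37.9 and 115 against 19.9 CPM), and Mdk was also lower at P6 (10.2 against 2.65 CPM). They fall outside the rule for named genes and were chosen after their values were seen. Ptprf, a receptor phosphatase for chondroitin sulphate, was called higher at P6 (170 against 262 CPM), and without P6 cKO replicate 2 the change was under 1.5-fold (log2 fold change 0.54).

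**Figure D5:**
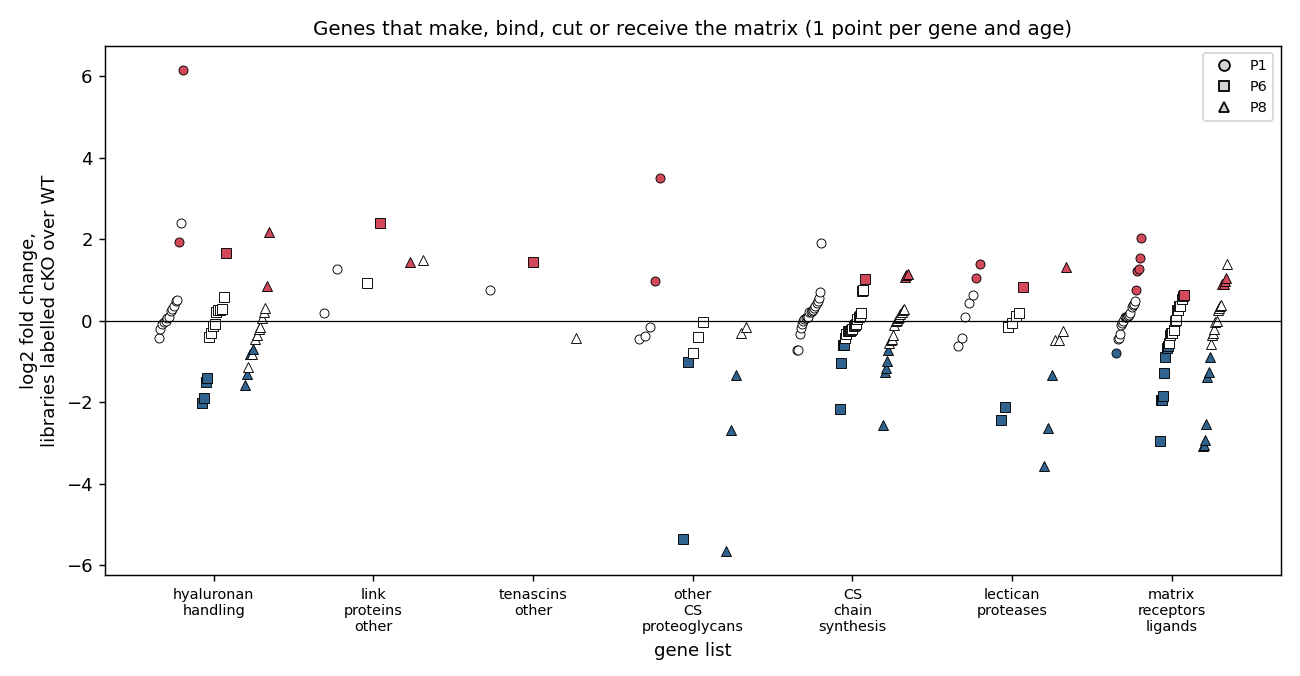
Log2 fold change, libraries labelled cKO over WT, of each tested gene of 7 lists at P1 (circles), P6 (squares) and P8 (triangles), with genes in rank order within a list and age (red, called higher; blue, called lower; white, not called; Itih4 at P6, at 0 in the libraries labelled cKO, is left out). At P1 the calls are mostly higher, as they are over all tested genes (4.01% higher and 0.892% lower). At P6 and P8 the lower calls exceed the higher ones for hyaluronan handling, the other proteoglycans, chain synthesis, proteases and receptors. Over all tested genes the shares were 7.16% higher and 6.38% lower at P6, and 11.2% and 8.37% at P8. The P6 counts of lower calls for chain synthesis, proteases and the other proteoglycans changed when single libraries were left out.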

How the data were processed

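The authors captured mRNA, sequenced it and aligned the reads with HISAT2 to mm10, per the labels, and deposited raw counts per gene. The HISAT2 version, the counting program, its annotation and its strand setting were not given in the sources used here. Testing used the deposited counts and was done with edgeR 4.0.16 (R 4.3.3): genes were filtered with filterByExpr, scaled by TMM (factors 0.943 to 1.07) and tested with the quasi-likelihood F-test on 6 group means over all 12 libraries, with Benjamini-Hochberg adjustment over the 17938 genes tested. Genes were called where the adjusted p was under 0.05 and the change reached 1.5-fold, with the adjusted p alone for differences between ages. Every p-value is two-sided. CPM values use the TMM-scaled totals, and levels per kilobase use the union of exons in GENCODE vM21 (18861 identifiers with a length). Intervals are 95%. The members and lists were chosen with earlier results of these data known. Named were all members, in each list the 2 most abundant genes and the most changed called genes at each age, the other link proteins, and the 2 nearest profiles per member. DESeq2 1.42.0, other scaling, no filter, a replicate block, the compared groups alone, other thresholds and each library left out were tried. The scripts were tested on simulated data. Between replicates, Spearman's rho was 0.988 to 0.992 and no libraries were near-identical.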

Additional observations from a re-analysis of the deposited data

Results flagged for a closer look

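For 6 of the 9 members the difference between libraries labelled cKO and WT itself differed between ages, by the edgeR test of that difference with adjustment over all tested genes (adjusted p below 0.05, log2 scale). Over all tested genes it differed for 15.3% between P1 and P6, 21.5% between P6 and P8 and 25.7% between P1 and P8. The share of all genes called in at least 1 of these tests was not computed, so the count of 6 has no such share beside it. Between P1 and P6 the difference shifted upward for Tnc by 1.08, for Ncan by 0.77 and for Ptprz1 by 0.48, and it shifted by -2.76 for Vcan and by -3.95 for Has2. Between P6 and P8 it shifted by 2.43 for Has2, by -1.75 for Bcan, by -1.27 for Ncan and by -1.11 for Ptprz1. Between P1 and P8 it shifted by 1.12 for Tnc, by -1.71 for Bcan, by -0.50 for Ncan, by -2.30 for Vcan, by -1.52 for Has2 and by -0.63 for Ptprz1. With 2 libraries a group, no group was large enough to be searched for outlying libraries.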

How the results depend on the processing

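Of 90 member values, 61 kept their direction and their side of the threshold in every alternative, and 29 did not in at least 1 (70 of 1524 values computed). At a fold change of at least 2, the members called went from 3 to 1 for cKO against WT at P1, from 4 to 2 for P8 against P6 in WT and from 4 to 1 for P6 against P1 in cKO. Leaving out single libraries gave 2 to 5 for that last count. The other counts of members called stayed within 1.5 times. The shares of all tested genes called at these other settings, the replicate block included, are not given here. These counts of members therefore have no such share beside them. The replicate numbers did not pair the libraries (correlations of replicate differences -0.0496 to 0.104 over 15 group pairs, 1 of them over 0.1), and with the replicate block 3, 7 and 5 members were called at P1, P6 and P8, as without it. Signs turned as follows, on the log2 scale. For Vcan, P6 against P1 in cKO, the value went from -0.0029 to 0.0023 with DESeq2 size factors and to 0.0024 with DESeq2. For Has1, cKO against WT at P1, it went from -0.0047 to 0.0032 with the replicate block and to 0.0016 on the P1 libraries alone. With single libraries left out, the ranges for cKO against WT were -0.21 to 0.22 (Bcan, P1), -0.015 to 0.12 (Bcan, P6), -1.93 to 0.086 (Tnr, P6), -0.42 to 0.61 (Has1, P1), -0.41 to 0.054 (Has1, P8), -0.024 to 0.0083 (Fam20b, P8) and -0.034 to 0.29 (Ptprf, P1). For the shift of the genotype difference from P1 to P6 they were -0.17 to 0.25 (Bcan) and -3.75 to 4.32 (Hapln1), from P6 to P8 -0.041 to 0.10 (Tnc) and -1.02 to 0.99 (Tnr), and from P1 to P8 -2.51 to 5.56 (Hapln1), where the highest of each Hapln1 range came without P1 cKO replicate 2, which leaves that group at 0. For the steps in cKO they were -0.11 to 0.095 (Vcan, P6 against P1), -0.17 to 7.91 (Hapln1, P6 against P1) and -0.47 to 1.54 (Tnr, P8 against P6). The cause was not tested, beyond the P6 cKO libraries that disagree for Tnr. Acan and Hapln1 rest on few reads.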
